A study of Homo sapiens with 18 samples.

Results

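The genes described here are 10 components and targets of the NF-kB pathway, chosen by name out of the 19883 genes of the count table. They are the subunit genes NFKB1, NFKB2 and RELB, the inhibitor and feedback genes NFKBIA, TNFAIP3 and BIRC3, and the target genes SOD2, TNFAIP2, IER3 and ICAM1. All 10 passed the filter on low counts, as did 15462 genes in all. The choice was made with earlier results of these data known, and it was selected on the comparison of HGF-treated with untreated cells. Values of that comparison are therefore given as a description, without a p-value.

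mRNA was sequenced from 3 established cell lines of human head and neck squamous cell carcinoma. Detroit 562 came from a metastasis of a pharyngeal tumor, FaDu from a tumor of the hypopharynx and SCC-9 from a tumor of the tongue. In each line, 3 libraries were made from untreated cells (control) and 3 from cells given 50 ng/mL HGF (hepatocyte growth factor, the ligand of the Met receptor). The sample records give 16 h of treatment, whereas the series record gives 48 h. Detroit 562 and FaDu were kept in MEM-α, while SCC-9 was kept in DMEM F12 with hydrocortisone, a glucocorticoid. Cell line and medium thus cannot be told apart in any comparison with SCC-9. Each line stands for 1 tumor, and the 3 libraries of a group came from repeats of the experiment with that line.

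Library totals on genes ranged from 35292392 to 43979921 counts. The lowest count of any of the 10 genes in any library was 93, for RELB in the untreated Detroit 562 library of replicate 1. All 7 epithelial markers examined were measured in these carcinoma lines, with summed levels of 3446 to 12768 normalized CPM per library. Single markers differed between lines, and KRT14 was low in Detroit 562. Its mean in untreated cells was 1.23 normalized CPM there, 391 in FaDu and 2915 in SCC-9. Among markers of other cell types, the leukocyte genes PTPRC, CD3E and LYZ had at most 3, 4 and 5 counts in any library. Of the endothelial markers PECAM1 had 1 to 21 counts, CDH5 4 to 132 and VWF 5 to 204. Of the fibroblast markers PDGFRB had at most 10, whereas COL1A1 had 140 to 3646 and COL1A2 up to 1396. Libraries of the same replicate number deviated together, so that each comparison with HGF was also fitted with a block for replicate number in every line.

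NF-kB is a family of dimeric transcription factors held in the cytoplasm by IkB proteins. Cytokines such as TNF and IL-1 activate the IKK kinases, which mark IkB for degradation, and the freed dimers then bind kappaB motifs in DNA. Several of the genes that are switched on in this way encode brakes on the pathway, and their mRNA is a common readout of its activity. NFKBIA encodes IkB alpha, which retains NF-kB in the cytoplasm. TNFAIP3 encodes A20, a ubiquitin-editing enzyme that shuts down signaling from the TNF receptor, and BIRC3 encodes cIAP2, a ubiquitin ligase at the same receptor. In squamous cell carcinoma the pathway is known for inflammatory and survival signals.

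kappaB motifs were looked for in the promoters of these genes. RefSeq promoter windows (GRCh38.p14), which run from 250 bases before to 50 bases after the start site, were at hand for 8 of the 10 genes (14 windows), the others being RELB and IER3. The kappaB consensus (GGGRNNYYCC, where R is A or G, Y is C or T and N is any base) was searched on both strands, as were AP-1 (TGANTCA) and the TATA box (TATAAA). A kappaB match was present in 6 of the 14 windows, belonging to 5 genes, compared with 3956 of all 35116 windows (11.3%). NFKB2 alone gave 3 of the 14 windows. The genes were chosen as components and targets of the NF-kB pathway, so nothing is read from this difference. None of the 14 windows held the AP-1 motif, which was present in 7.71% of all windows, and the TATA box was found in those of NFKBIA and ICAM1 only, compared with 11.5% of all windows. The windows of SOD2, TNFAIP2 and ICAM1 held no kappaB consensus match, which says only that these letters are missing there. The stretches around the matches of NFKBIA, TNFAIP3, BIRC3 and NFKB1 are shown since these are 3 feedback genes and a subunit gene of the pathway itself. Each is written on the strand of its gene, with the kappaB match in capitals.
NFKBIA, chr14:35404781-35404870, minus strand: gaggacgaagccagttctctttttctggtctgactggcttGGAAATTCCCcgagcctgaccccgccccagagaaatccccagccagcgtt
TNFAIP3, chr6:137867152-137867253, plus strand: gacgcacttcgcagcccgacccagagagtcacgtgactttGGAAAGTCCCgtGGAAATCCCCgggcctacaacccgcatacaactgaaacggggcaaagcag
BIRC3, chr11:102317245-102317398, plus strand: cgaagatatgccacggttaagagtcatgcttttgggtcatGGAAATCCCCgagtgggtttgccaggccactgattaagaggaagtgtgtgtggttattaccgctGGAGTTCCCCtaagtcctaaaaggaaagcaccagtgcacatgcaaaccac
NFKB1, chr4:102501270-102501359, plus strand: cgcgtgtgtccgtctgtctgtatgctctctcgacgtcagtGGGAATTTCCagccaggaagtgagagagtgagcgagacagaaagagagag
The match of NFKBIA begins at position -81 from the start site and that of NFKB1 at -49. TNFAIP3 carries matches at -67 and -55, which are separated by the letters gt, and BIRC3 carries matches at -199 and -135. No binding of NF-kB was measured, and no relation of the matches to the response to HGF was tested.

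In untreated cells, most of the 10 genes were highest in SCC-9. That held for 8 genes, all but NFKB1 and TNFAIP2. Values are normalized CPM, i.e., counts scaled to a common library size after TMM normalization, given as mean ± SD of 3 libraries. In such bulk libraries fewer expressing cells and less RNA per cell cannot be told apart. Calls required an adjusted p under 0.1 in edgeR's quasi-likelihood test together with a log2 difference of 0.4 or more in either direction. By this rule 9 of the 10 genes differed between Detroit 562 and SCC-9, where 65.4% of all genes tested were called, and 9 between FaDu and SCC-9, where 64.2% were called. Between Detroit 562 and FaDu 7 genes were called, with 61% of all genes. The shares of the 10 genes called thus have to be read against a background in which most genes differed. Exact permutation tests of single genes, 3 libraries against 3, cannot go below p = 0.1.

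**Figure D1:**
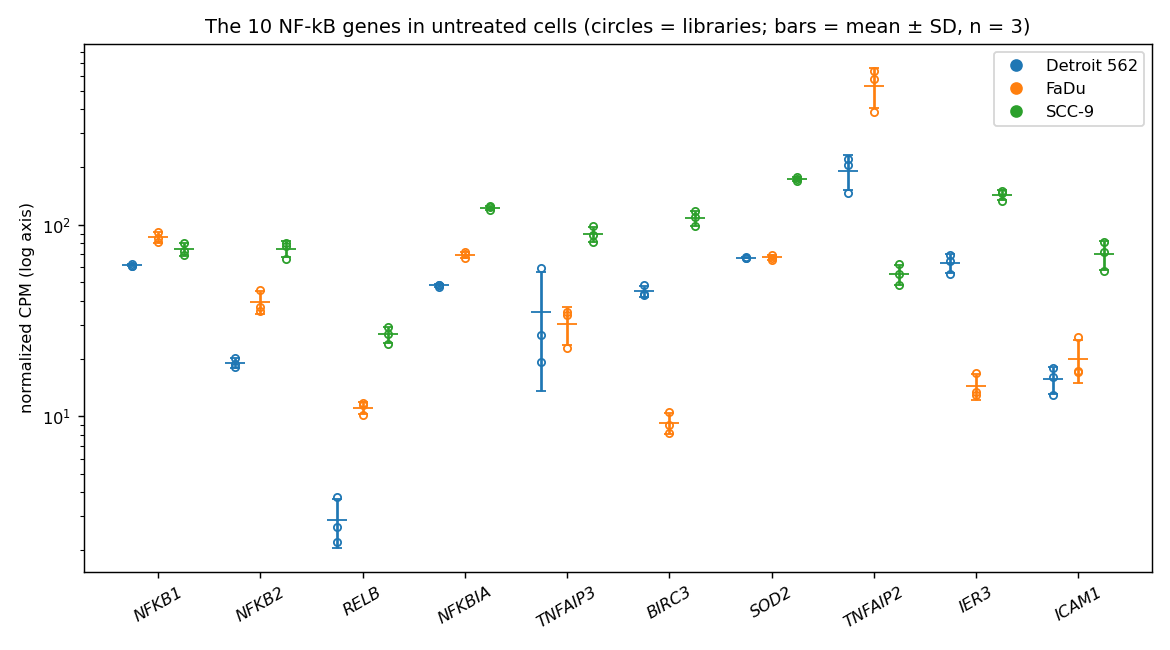
Normalized CPM (log axis) of the 10 genes in untreated cells of the 3 lines; circles are single libraries and bars the mean ± SD of 3. SCC-9 lies above both other lines for 8 genes and below them for TNFAIP2, and FaDu is lowest for BIRC3 and IER3.

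Among the subunit genes, NFKB1, which encodes the p105 precursor of p50, varied least. Detroit 562 had 61.4 ± 0.878, SCC-9 had 74.3 ± 5.80 and FaDu had 86.2 ± 5.55. The lines did not overlap, but only Detroit 562 and FaDu differed by more than the minimum fold (log2 difference -0.49, adjusted p = 2.63e-05). NFKB2 (p100, precursor of p52) and RELB, whose products form the dimer of the alternative NF-kB pathway, followed the order Detroit 562, FaDu, SCC-9. NFKB2 increased along it from 19.0 ± 1.07 over 39.6 ± 5.48 to 74.9 ± 7.43, and RELB from 2.87 ± 0.815 over 11.1 ± 0.821 to 26.7 ± 2.65. All 3 steps of both genes were called, and RELB was 9.35-fold higher in SCC-9 than in Detroit 562 (log2 difference -3.22 for Detroit 562 minus SCC-9, adjusted p = 1.82e-09). RELA, which encodes the main activating subunit, ran the other way. It was higher in Detroit 562 and in FaDu than in SCC-9, by 1.06 and 1.17 on the log2 scale (adjusted p = 1.27e-11 and 5.13e-12, edgeR). REL was highest in Detroit 562 with 59.1 ± 3.32, and FaDu (28.8 ± 2.97) and SCC-9 (34.1 ± 2.87) differed by less than the minimum fold (log2 difference -0.24).

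The inhibitor and feedback genes were also highest in SCC-9. For NFKBIA, Detroit 562 had 48.2 ± 0.745, FaDu had 69.6 ± 2.71 and SCC-9 had 123 ± 2.74, and each step was called, with log2 differences of -0.53, -0.82 and, over the whole range, -1.35. BIRC3 spanned 9.21 ± 1.18 in FaDu, 44.8 ± 2.93 in Detroit 562 and 109 ± 9.79 in SCC-9. That made it 11.8-fold higher in SCC-9 than in FaDu (adjusted p = 3.46e-12, edgeR), the largest difference between lines among the 10 genes. TNFAIP3 reached 89.2 ± 8.37 in SCC-9. In Detroit 562 its 3 untreated libraries had 19.1, 26.4 and 59.5, and in FaDu 22.6, 34.9 and 33.8, so that these lines overlapped (log2 difference 0.20, adjusted p = 0.63, edgeR). Without the third control library of Detroit 562 this difference turned to -0.42.

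The target genes fell into different patterns. SOD2, the mitochondrial superoxide dismutase, had 67.2 ± 0.389 in Detroit 562 and 67.5 ± 1.86 in FaDu, which did not differ beyond their spread, but 174 ± 4.44 in SCC-9. ICAM1, a leukocyte adhesion molecule, had 15.6 ± 2.47, 19.96 ± 5.06 and 70.1 ± 12.2 in the same order. IER3, a regulator of survival, was lowest in FaDu with 14.4 ± 2.18, had 63.3 ± 7.30 in Detroit 562, and was highest in SCC-9 with 144 ± 8.86. TNFAIP2 was the one gene of the 10 that was lowest in SCC-9, with 55.1 ± 6.87. It had 191 ± 39.9 in Detroit 562 and 532 ± 127 in FaDu, 9.66-fold more than in SCC-9 (adjusted p = 8.75e-09, edgeR). Per kilobase of exon in the canonical transcript, TNFAIP2 was the most abundant of the 10 genes in FaDu (mean 114 CPM per kb), whereas IER3 led in Detroit 562 and SCC-9 (51.2 and 116 CPM per kb).

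Other targets of the pathway shared the order seen between FaDu and SCC-9. Of 29 textbook target genes tested outside the 10, 26 were higher in SCC-9 than in FaDu and 1 was lower, with a median log2 difference of -2.37 for FaDu minus SCC-9, compared with -0.02 over all genes. Between Detroit 562 and SCC-9, 19 were higher in SCC-9 and 5 in Detroit 562. Genes known to be induced by glucocorticoids moved with the same comparison. Of 9 such genes, 7 were higher in SCC-9 than in FaDu, and 7 were higher in SCC-9 than in Detroit 562, with 1 lower. Over all genes, 64.2% were called between FaDu and SCC-9 and 65.4% between Detroit 562 and SCC-9, in either direction. The summed level of the 9 genes was 2075 to 2231 CPM in untreated SCC-9 libraries, 539 to 695 in Detroit 562 and 300.3 to 386 in FaDu. Single genes dominated these sums. MT2A had a mean of 1402 CPM in SCC-9. GLUL had 374 CPM in Detroit 562, where it was higher than in SCC-9 (127 CPM). The part of hydrocortisone in the levels of the NF-kB genes was not tested.

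After HGF, the 10 genes split in direction. IER3 was higher and TNFAIP2 lower in every line, and TNFAIP3 was higher in Detroit 562 and FaDu only. NFKBIA was lower in Detroit 562 and SCC-9 without overlap of the groups, and SOD2 and BIRC3 in SCC-9. In Detroit 562, 4 of the 10 genes were called (TNFAIP3, RELB and IER3 higher, TNFAIP2 lower), both without the replicate block, where 17.9% of all genes were called, and with it, where 21.5% were. In FaDu only IER3 was called without the block (0.0259% of all genes), and IER3, TNFAIP3 and TNFAIP2 with it (5.6%). In SCC-9 edgeR called no gene without the block, in the table as a whole (0%) as among the 10. There 641 of the 15462 genes tested had an unadjusted p below 0.05, and DESeq2 called 19 genes, BIRC3 among them. With the block, BIRC3 and TNFAIP2 were called (1.97% of all genes). Since the genes were selected on this comparison, nothing is read from these counts.

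**Figure D2:**
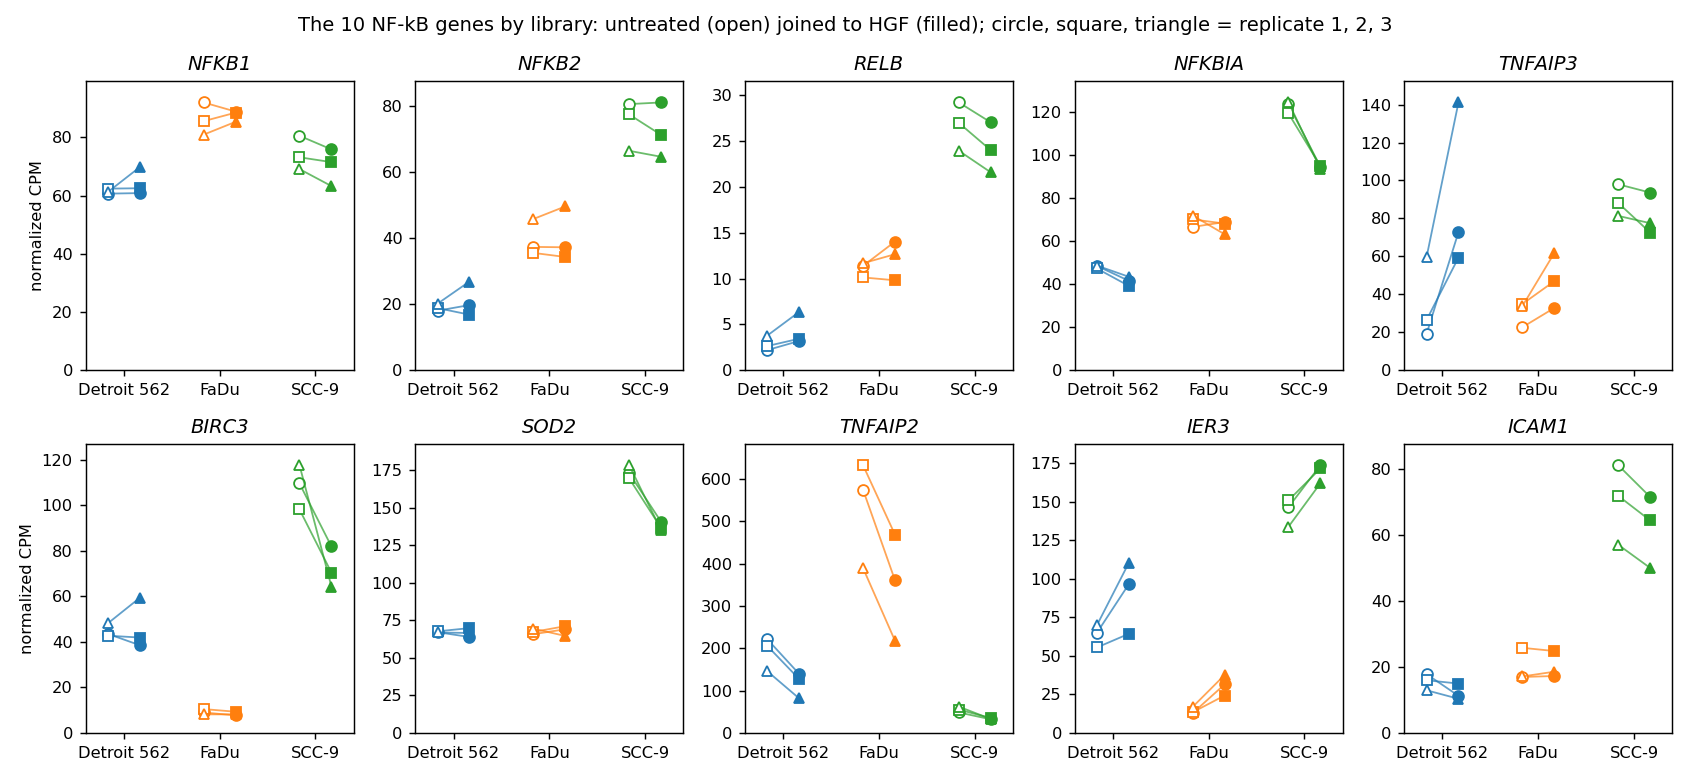
Normalized CPM of each gene in all 18 libraries, with untreated cells as open and HGF-treated cells as filled symbols; lines join libraries of the same cell line and replicate number (circle 1, square 2, triangle 3). TNFAIP2 is lower and IER3 higher with HGF in all 9 joined pairs, and untreated TNFAIP3 in Detroit 562 ranges from 19.1 to 59.5.

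TNFAIP3 showed the largest response of the 10 genes. In Detroit 562 the untreated libraries of replicates 1, 2 and 3 had 19.1, 26.4 and 59.5 CPM and the HGF libraries 72.7, 59.4 and 141. The groups touched at the third control, but each HGF library was above the control of its own number, and the fitted log2 fold change was 1.38 ± 0.36 (SE). It was called in all 6 fits that left out 1 library of Detroit 562, with changes from 0.92 to 2.00. In FaDu, 22.6, 34.9 and 33.8 CPM became 32.8, 46.9 and 61.7 (log2 fold change 0.63 ± 0.36), again higher in 3 of 3 pairs. SCC-9, which started at the highest level, had 98.0, 88.2 and 81.3 CPM untreated and 93.6, 72.6 and 77.5 with HGF, lower in 3 of 3 pairs (-0.13 ± 0.35).

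NFKBIA, in contrast, was lower with HGF. In SCC-9 the untreated libraries lay at 124, 119.5 and 125 CPM and the HGF libraries at 94.7, 95.1 and 93.7, a clear gap (log2 fold change -0.38 ± 0.06). Detroit 562 went from 48.6, 47.4 and 48.7 to 41.6, 39.3 and 43.5 (-0.22 ± 0.06), likewise without overlap. In FaDu the groups overlapped, with 66.7, 70.2 and 72.0 CPM untreated and 69.0, 68.3 and 63.3 with HGF (-0.06 ± 0.06). The changes of NFKBIA thus remained below the minimum fold of 0.4 in every line.

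BIRC3 differed clearly in SCC-9 only, where it had 109.7, 98.2 and 118 CPM untreated and 82.0, 70.5 and 64.3 with HGF, without overlap (log2 fold change -0.59 ± 0.14). Detroit 562 had 43.5, 42.7 and 48.2 untreated and 38.6, 41.9 and 59.4 with HGF (0.06 ± 0.14), with the third replicate alone higher. FaDu stayed low, with 9.0, 10.5 and 8.15 against 7.68, 9.31 and 8.18 (-0.13 ± 0.15).

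The subunit genes differed little, except for RELB in Detroit 562. There the untreated libraries had 2.19, 2.64 and 3.77 CPM and the HGF libraries 3.19, 3.44 and 6.36, higher in 3 of 3 pairs but overlapping (log2 fold change 0.59 ± 0.24). Leaving out the third HGF library lowered this value to 0.21. RELB had 11.4, 10.1 and 11.7 against 14.0, 9.81 and 12.7 in FaDu and 29.2, 27.0 and 24.0 against 27.1, 24.0 and 21.6 in SCC-9, with fold changes of 0.14 ± 0.21 and -0.14 ± 0.20. NFKB1 and NFKB2 were not called in any line, with log2 fold changes between -0.08 and 0.15. Both had their largest difference within a pair in the third replicate of Detroit 562, where NFKB1 went from 61.2 to 69.8 and NFKB2 from 20.2 to 26.9.

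**Figure D3:**
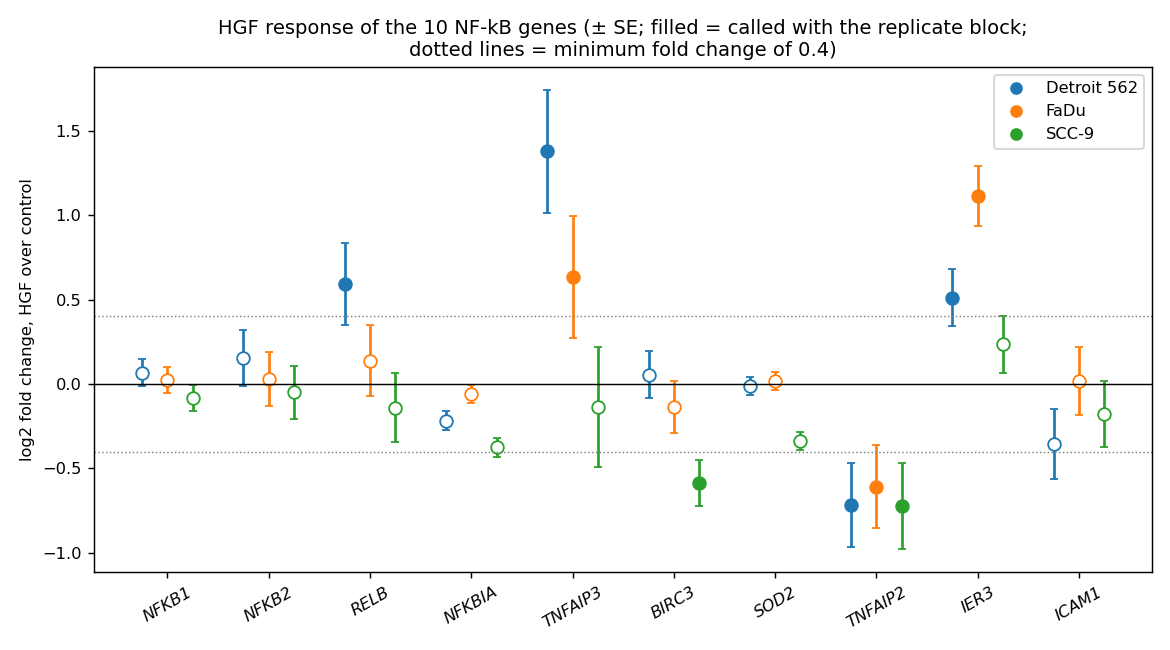
Log2 fold change of HGF over control with its SE for each gene and cell line; filled points were called in the fit with the replicate block, and dotted lines mark the minimum fold change of 0.4. TNFAIP3 spans the widest range of the 10 genes, from -0.13 in SCC-9 to 1.38 in Detroit 562, and TNFAIP2 lies between -0.72 and -0.61 in the 3 lines.

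TNFAIP2, which is known as a gene induced by TNF, had similar log2 fold changes in the 3 lines. The study had reported it as regulated in every line of these data, so this likeness restates its selection. FaDu had 575, 632 and 389 CPM untreated and 361, 469 and 218 with HGF, and its groups overlapped because the third pair lay lower as a whole. Detroit 562 went from 221, 206 and 146 to 139, 127 and 81.6, and SCC-9 from 48.3, 55.0 and 62.0 to 32.1, 35.1 and 32.9, both without overlap. The untreated levels differed up to 9.66-fold between lines, but the log2 fold changes were -0.72 ± 0.25, -0.61 ± 0.25 and -0.72 ± 0.25 in Detroit 562, FaDu and SCC-9. The gene was lower in all 9 pairs.

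IER3, which responds to growth factors as well as to NF-kB, was higher in all 9 pairs. FaDu had 12.8, 13.4 and 16.9 CPM untreated and 31.5, 24.3 and 37.6 with HGF, without overlap (log2 fold change 1.11 ± 0.18). In Detroit 562, 64.9, 55.4 and 69.8 became 96.5, 64.3 and 110.3 (0.51 ± 0.17), overlapping through the second HGF library. SCC-9 had 146, 151 and 134 untreated and 174, 172 and 162 with HGF (0.23 ± 0.17), which did not overlap but stayed under the minimum fold. In the fits that left out 1 FaDu library, IER3 was called in 2 of 6 with the log2 fold change between 0.97 and 1.26. In Detroit 562 IER3, RELB and TNFAIP2 each lost their call without control 1, without control 2 or without HGF replicate 3.

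SOD2 and ICAM1 showed smaller differences. SOD2 was lower in SCC-9, with 173, 169 and 178 CPM untreated and 141, 136 and 135 with HGF and no overlap (log2 fold change -0.34 ± 0.05). It was level in Detroit 562 (67.1, 67.6 and 66.9 against 63.9, 69.8 and 66.5) and in FaDu (65.7, 67.2 and 69.4 against 69.0, 71.1 and 64.6). The SOD2 value is uncertain as to its source, because the gene RP1-56L9.7 overlaps it on the same strand and both had nearly the same counts in every library, with a ratio of 0.984 to 1.00. ICAM1 went from 17.8, 16.0 and 12.9 to 11.3, 15.0 and 10.4 in Detroit 562 (-0.36 ± 0.21) and from 81.2, 71.9 and 57.1 to 71.6, 64.4 and 50.0 in SCC-9 (-0.18 ± 0.19). Both were lower in 3 of 3 pairs, with overlapping groups, and the difference in FaDu was 0.02 ± 0.20.

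The 10 genes differed in how much of their spread went with HGF. After removal of the cell line means, the treatment accounted for 90.6% of the sum of squares of log2 CPM for NFKBIA and for 86.8% for SOD2, while replicate number accounted for 3.52% and 4.49%. For NFKB2, ICAM1, NFKB1 and RELB the replicate number took the larger share, with 79.6%, 71.8%, 70.4% and 65.3%. Replicate number has more terms per line than treatment, so it takes a larger share even where neither has an effect. The treatment shares come from the comparison on which the genes were selected. In a test of the replicate terms (edgeR's quasi-likelihood F test), 8 of the 10 genes passed an adjusted p of 0.1, compared with 53.8% of all genes. TNFAIP2 had the lowest adjusted p (1.77e-05) and TNFAIP3 followed (4.89e-05), while NFKBIA (0.849) and SOD2 (0.872) did not pass. Cell line accounted for most of the total spread of 9 genes, from 84.6% for NFKB1 to 97.3% for BIRC3, but for 39.2% in the case of TNFAIP3.

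**Figure D4:**
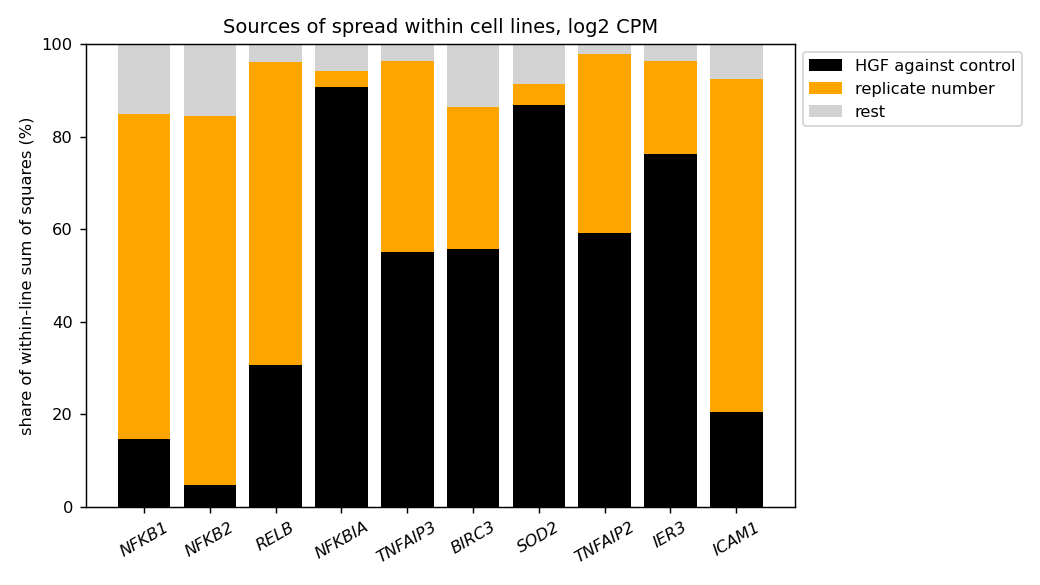
Share of the within-line sum of squares of log2 CPM (percent) that went with HGF treatment, with replicate number and with neither, for each gene over 18 libraries. The treatment share is highest for NFKBIA (90.6%) and lowest for NFKB2 (4.79%).

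Within cell lines some of the genes varied together. Over the 18 libraries, with line means removed, Pearson's r was 0.81 between NFKBIA and SOD2, 0.73 between SOD2 and BIRC3 and 0.68 between NFKBIA and BIRC3. It was 0.79 between RELB and TNFAIP3, 0.71 between RELB and NFKB2 and 0.63 between TNFAIP3 and IER3. TNFAIP2 ran against these genes, with -0.79 to IER3 and -0.70 to TNFAIP3, and with the former, at 0.64 to NFKBIA and 0.49 to SOD2. NFKB1 was related to genes of both kinds, with 0.58 to RELB and 0.55 to BIRC3, and ICAM1 had its highest value, 0.52, with TNFAIP2. NFKBIA and TNFAIP3, both feedback genes with kappaB matches in the promoter windows shown above, had an r of -0.25. Among the 5 genes with matches this was the only negative pair. The others ranged from 0.02 (NFKB2 with NFKBIA) to 0.68 (NFKBIA with BIRC3). These values describe 18 libraries that share treatments and replicates, and have no test. The genes most like TNFAIP2 among the 15462 tested were PLEKHG6 (r = 0.99), JDP2 (0.96) and SNCG (0.96). JDP2, like TNFAIP2, had been reported by the study as regulated in every line. IER3 was most like DUSP6 (0.90), ZBED2 (0.90) and ITGB5 (0.89), and NFKBIA like GTF2I (0.82), RP1-56L9.7 (0.81) and SOD2 (0.81). RP1-56L9.7 and SOD2 overlap and had nearly the same counts, so they are not separate likenesses. The doubt about the source of the SOD2 counts holds for all its correlations.

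**Figure D5:**
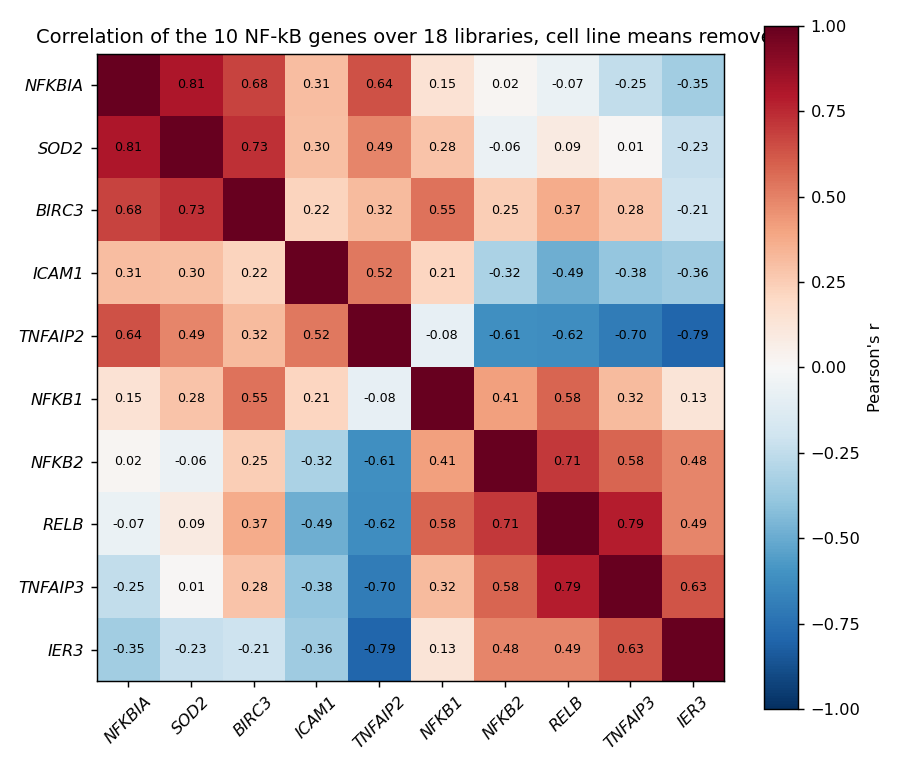
Pearson's r between the 10 genes over 18 libraries after subtraction of the cell line means from log2 CPM; red is positive and blue negative. NFKBIA, SOD2 and BIRC3 are positive to each other, as are RELB, TNFAIP3, NFKB2 and IER3; TNFAIP2 is negative to the latter (-0.61 to -0.79), and NFKB1 is positive to RELB and to BIRC3.

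The rest of the pathway held genes that rose and genes that fell in Detroit 562. Of 78 further genes in 6 lists (subunits, IkB proteins, kinases, receptors and adaptors, feedback regulators, targets), 75 were tested. In Detroit 562, 17 were called (8 rose and 9 fell), beside 17.9% of all genes, and with the block 22 (8 rose and 14 fell), beside 21.5%. The median log2 fold change was -0.06, compared with -0.01 over all genes. The other subunit genes were not called, with 0.13 for RELA and -0.17 for REL. Of the other IkB genes 1 of 5 fell, NFKBIZ, which encodes an IkB protein of the nucleus (-0.83 ± 0.11, adjusted p = 0.000364, edgeR). The lists were chosen with earlier results of these data known, so this p-value is no independent test. Among 10 kinase genes, CHUK, which encodes the kinase IKK alpha, rose by 0.43 and TAB3 fell by 0.43. Of 17 receptor and adaptor genes, IL1R1, the receptor of IL-1, fell by 1.14, TNFRSF11A fell by 0.52 and TRAF3 rose by 0.45. Of 12 feedback regulators, SOCS3 rose by 0.81 and ZC3H12A, an RNase of inflammatory transcripts, fell by 0.49.

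Among the 29 other target genes tested, 5 rose and 4 fell in Detroit 562, and the median was -0.26. With the block 5 rose and 7 fell, and with DESeq2 4 rose and 5 fell. The cytokine genes IL1A and IL1B rose by 1.87 and 1.44 from low levels (means of 0.988 and 0.198 CPM in untreated cells), and CD44 was among the other risers. BCL2A1, called by edgeR but not by DESeq2, was near 0, with 0 to 0.0707 CPM in untreated and 0.0568 to 0.304 CPM in HGF libraries, so that no fold is given. PTGS2, which encodes cyclooxygenase-2, rose by 1.27 from 54.2 ± 29.9 to 131 ± 67.4 CPM. On the other side TNFSF10, the gene of the death ligand TRAIL, fell by 1.51, and IRF1 fell by 1.00, from 60.3 ± 11.9 to 30.1 ± 7.03 CPM. C3 and SDC4 fell too. None of the 75 genes was called in FaDu or SCC-9 with edgeR without the block, while DESeq2 called 3 and 1 of them. With the block, 8 rose and 3 fell in FaDu, among them MMP9 (log2 fold change 2.18 without the block), CXCL8 (1.03) and CD44 (0.88) as risers and TNFSF10 (-0.63). MMP9 was low there, with 0.176 to 0.352 CPM in untreated and 0.302 to 2.40 CPM in HGF libraries, so that the groups overlapped. In SCC-9 with the block, PTGS2 was the single riser (0.61) and TNFSF10, TNF, ZC3H12A and IKBKE fell (-0.77, -0.63, -0.43 and -0.41).

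Lists outside the pathway were set beside these counts. Over all genes, 17.9% were called in Detroit 562 (951 rose and 1815 fell), 0.0259% in FaDu and 0% in SCC-9. With the block these shares were 21.5%, 5.6% and 1.97%. Of 14 genes induced through ERK, the kinase downstream of Met, 11 rose and none fell in Detroit 562 (median log2 fold change 0.93), led by SPRY4 with 1.95. With the block 11 rose there and 1, EGR1, fell. In FaDu only DUSP6, a phosphatase that restrains ERK, was called (1.44 ± 0.19, adjusted p = 0.0115, edgeR), and 8 of the 14 rose with the block. Since this list, too, was chosen with earlier results known, the p-value of DUSP6 is no independent test. In SCC-9 none was called without and 7 rose with the block. Of 16 interferon-induced genes 7 fell in Detroit 562 (median -0.49), with -2.12 for GBP2 and -1.27 for GBP1. With the block 10 fell in Detroit 562 and 5 in SCC-9, while 4 fell and 1 rose in FaDu. Of the 9 glucocorticoid-induced genes 3 fell in Detroit 562 (TSC22D3, KLF9 and GLUL). Of 7 epithelial markers KRT5, KRT8 and CDH1 fell there as well. Of 10 markers of leukocytes, endothelium and fibroblasts 5 were tested, and VWF, COL1A2 and COL1A1 fell in Detroit 562, where the summed level of the 10 was 31.2 to 57.2 CPM in untreated and 15.6 to 28.7 in HGF libraries. The part of these movements in the values of the NF-kB genes was not tested.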

How the data were processed

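The authors trimmed reads of stranded mRNA libraries (Cutadapt 1.16), aligned them to GRCh38.p12 (STAR 2.5.2b, GENCODE 28) and counted reads that overlapped each gene on its strand (bedtools). The deposited values are raw counts. A read in overlapping genes was counted for each of them, and 18 pseudoautosomal duplicates were dropped. Genes were filtered with filterByExpr and normalized with TMM. All 18 libraries were fitted with 1 mean per cell line and treatment in edgeR 4.0.16 (quasi-likelihood test, Benjamini-Hochberg over 15462 genes, R 4.3.3) and with DESeq2 1.42.0 as an alternative. The thresholds are those of the study. Levels per kilobase used exon lengths of canonical transcripts (GENCODE 44), although reads in introns were counted too. Correlations used log2 CPM with a prior count of 2.

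The genes, the gene lists and the tests were chosen with earlier results of these data known. All 10 genes are named, and of each other list the called genes, at most the 4 with the largest change per comparison, besides RELA, REL and DUSP6. Genes named because they share counts or resemble a gene were found by script. PTGS2, IRF1, CD44, C3 and SDC4, and genes named for the fit with the block, were named after their values were seen.

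The replicate numbers pair the libraries: after subtraction of group means, control and HGF libraries correlated over 15462 genes at 0.161 to 0.563 for the same number and averaged -0.227 to -0.136 for other numbers. With 3 libraries a group, p-values measure the spread between repeats of 1 cell line.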

Additional observations from a re-analysis of the deposited data

Results flagged for a closer look

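In 4 cases every same-numbered pair of one cell line moved one way after HGF and every pair of another line moved the opposite way. How often this pattern occurred over all genes was not counted. NFKB1 was higher in 3 of 3 pairs of Detroit 562 and lower in 3 of 3 of SCC-9, with a difference of log2 fold changes of only 0.15. Pairs 1 and 2 of Detroit 562 were nearly level for NFKB1, with log2 differences of 0.0044 and 0.0031. RELB was likewise higher in all pairs of Detroit 562 and lower in all of SCC-9, with a difference of 0.73. TNFAIP3 was higher in all pairs of Detroit 562 and of FaDu and lower in all pairs of SCC-9, with differences of 1.51 and 0.77. For the 10 genes these differences between lines were not tested, since the genes were selected on this comparison. In untreated cells SCC-9 had more RELB and TNFAIP3 than either other line, and SCC-9 alone was kept with hydrocortisone.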

How the results depend on the processing

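With the replicate block the number of the 10 genes called after HGF stayed at 4 in Detroit 562 and went from 1 to 3 in FaDu and from 0 to 2 in SCC-9. Of the other pathway genes 22 in place of 17, 11 in place of 0 and 5 in place of 0 were called. The block changed no other call of the 10 genes, including those between untreated lines (7, 9 and 9). DESeq2, with as without its fold change prior, called 3 other pathway genes in FaDu and, in SCC-9, 1 of the 10 genes and 1 other pathway gene. A fit of the compared line alone called 0 of the 10 genes in FaDu and 2 in SCC-9. With stricter limits (adjusted p under 0.05, log2 change of 1 or more), 1 of the 10 genes was left in Detroit 562 and 0 in FaDu, with 6 other pathway genes in Detroit 562. Leaving out 1 library in turn gave 1 to 4 of the 10 genes and 9 to 23 other pathway genes in Detroit 562, 0 to 1 of each in FaDu, and 7 to 8 genes between untreated Detroit 562 and FaDu. The eighth was ICAM1, called without Detroit 562 control 1, FaDu control 1 or FaDu control 3. A replicate factor shared by the 3 lines left 2 of the 10 genes, TNFAIP2 and ICAM1, past the F test in place of 8. The sign of the TNFAIP3 difference between untreated Detroit 562 and FaDu turned to -0.42 without Detroit 562 control 3 (range without 1 library -0.42 to 0.50). That of SOD2, close to 0, turned to 0.0030 with DESeq2 size factors, to 0.0042 with DESeq2 with the prior and 0.0042 without it, and to 0.015 without FaDu control 3 (range without 1 library -0.024 to 0.015). Among all genes, the calls in FaDu went from 4 to 866 with the block, to 66 and 65 with DESeq2 and to 0 with FaDu alone. In SCC-9 they went from 0 to 305 with the block, to 19 and 18 with DESeq2 and to 25 with SCC-9 alone. In Detroit 562 they went from 2766 to 621 at the stricter threshold and to 1588 without control 1. The causes were not tested.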
